A study of Harpegnathos saltator with 27 samples.

Results

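These data describe the antennae of wild-type (WT) pupae of the jumping ant Harpegnathos saltator between day 15 (D15) and day 20 (D20) after puparium formation (APF). The libraries are those labeled as WT with a stage of D20 or D15, which gives 8 of the 27 libraries of the series, 4 at each stage. Polyadenylated RNA of whole antennae was sequenced, and the study asked how antennal gene expression develops in WT and in mutants of orco, the gene for the co-receptor that odorant receptors require. Its other libraries are WT antennae at D10 and D25 and antennae of homozygous orco mutants at the same 4 stages. The WT animals at D20 and D15 carry no mutation or treatment that the sources used here name. Replicates 1 to 3 of both stages belong to sequencing batch 1 and replicate 4 of both stages to sequencing batch 3, so the comparison of stages is balanced over batches. The study describes how pupae were sexed, and males left out, under the animals of its staining experiments, and whether this covers these libraries is not clear. How many animals gave the antennae of a library, and of which caste, was not found in the sources used here. The p-values measure the spread between libraries, which for single genes was estimated over all 27 libraries and not over the 8 alone.

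In the last part of pupal life an insect antenna builds its adult surface. The epidermis first shapes the apical surface, with its hairs and bristles, under a thin outer envelope to which zona pellucida (ZP) domain proteins and, in flies, Osiris proteins contribute. It then secretes chitin and cuticular proteins beneath that envelope, and the cuticle is later tanned and waterproofed. These steps are timed by pulses of the steroid ecdysone and by the nuclear receptors and repressors that the pulses turn on and off, while sensory neurons below the cuticle complete their dendrites and synapses.

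Counts on genes ranged between 20610492 and 34566922 in D20 libraries and between 13772158 and 38608319 in D15 libraries. Values per library are normalized counts, the counts divided by a size factor of the library. Changes are log2 changes of D20 over D15 with their standard errors, tested both ways with the quasi-likelihood method of edgeR and with p-values adjusted over 11086 genes by the Benjamini-Hochberg method and a threshold of 0.05. All markers that the study uses for neurons, glia, muscle, epithelium and support cells of the antenna were above the count minimum of 10. Because whole antennae were sequenced, fewer cells of a type and less RNA per cell cannot be told apart in any of the values.

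A pair of libraries stood apart. The root mean square log2 difference of D15 replicate 3 was 1.46 to the D20 libraries and 1.66 to the other D15 libraries, so it lay nearer to the other stage, while the other D15 libraries were at 1.60 to 1.78 to D20 and at 1.31 to 1.36 to D15. D20 replicate 4 was at 1.21 to its own stage, where the other D20 libraries were at 0.830 to 0.874, and at 1.57 to the D15 libraries. Whether these libraries match their labeled stages as closely as the others do cannot be settled from the counts, and both were kept under their labels. The main counts are therefore also given without this pair, and the part that the pair played in single genes is given beside their values.

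At D20, 617 genes (5.57%) were higher and 666 (6.01%) lower than at D15, together 1283 or 11.6% of the 11086 genes tested. The changes were large. The median log2 change was 2.04 among the higher genes and −1.38 among the lower genes, and 88 genes were higher and 70 lower by more than 5 on the log2 scale. For 872 of the called genes the 4 D20 libraries did not overlap the 4 D15 libraries, where 12.5% of all genes tested did not overlap, 7.04% with D20 higher and 5.48% with D20 lower. Without D15 replicate 3 and D20 replicate 4, a setting chosen after seeing the data, 1015 genes were higher and 773 lower, and 1115 of the 1283 calls (86.9%) were kept in the same direction. The single libraries that moved a count most were D15 replicate 3, without which 1009 genes were higher and 854 lower, and D20 replicates 1, 2 and 3, without which 420, 432 and 407 were lower. With the 8 WT libraries fitted alone, with no other group in the estimate of the spread, 233 genes were higher and 145 lower, and 366 of the 1283 calls (28.5%) were kept. Within sequencing batch 1 alone, with 3 libraries a stage, 244 genes were higher and 194 lower. In the batch 3 pair, which shares no library with those, 220 of the 244 had the same sign, with a median log2 difference of 1.61, and 139 of the 194 had the same sign, with a median of −0.88. Over all genes of that pair 51.9% were higher and the median was 0.03.

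Of the genes named here other than CSP6, 93 passed the test with all 27 libraries and 41 also passed with the 8 WT libraries alone. Among the 41 were apd-3l, CPR14, CPR17, CPR19, CPR27 and CPR28, Y-y and Y-h, Cda5, tyn, Osi24, singed, spz6, Blimp-1, dib, cyc, nAChRalpha2, Cdk1, Hsc70-3 and Col4a1. Of these, apd-3l, CPR28, Y-h, tyn, Cdk1 and Hsc70-3 did not pass within sequencing batch 1. The 52 that did not pass alone took in every called gene of the Or, Ir and Gr families and every named gene that had passed in the lists of ion channels, synaptic release, axon guidance, cilia, oxidative phosphorylation and ribosomal proteins. They also took in bnb, ftz-f1, per, NPF, sad, LOC105187852 and LOC105192464, and of the cuticle and apical surface CPR16, Cpap3-d, snu, snsl, verm, neo, m, pio, Osi2 and Osi16.

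The transcript pool at D20 was dominated by a few genes. The 10 most abundant genes took 46.1, 51.5, 43.3 and 13.9% of the counts in D20 replicates 1 to 4, against 11.4, 10.99, 5.71 and 10.7% in D15 replicates 1 to 4. All D20 libraries lay above all D15 libraries, and D20 replicate 4 was the closest to them. The means were 38.7 ± 16.9% at D20 and 9.72 ± 2.69% at D15, a difference of 29.0 percentage points (SD, n = 4 libraries each; exact permutation of the libraries, two-sided p = 0.0286, which no split of 4 against 4 can undercut). With the single most abundant gene the difference was 18.7 points (exact permutation test, p = 0.0571), and that of the 10 genes stayed between 24.7 and 37.3 points when any 1 library was left out.

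Fold changes depended on how libraries were scaled. When libraries were scaled by library size alone, the median log2 change of all genes was −0.80, against −0.04 with the TMM scaling used elsewhere, which trims the genes that differ most, and 349 genes were higher and 6191 lower. A change of a gene group is therefore read relative to the median of all genes under each scaling, and the groups whose sign turns are named beside their values. Counts of a gene list are set against the 5.57% of all genes that were higher and the 6.01% that were lower.

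**Figure D1:**
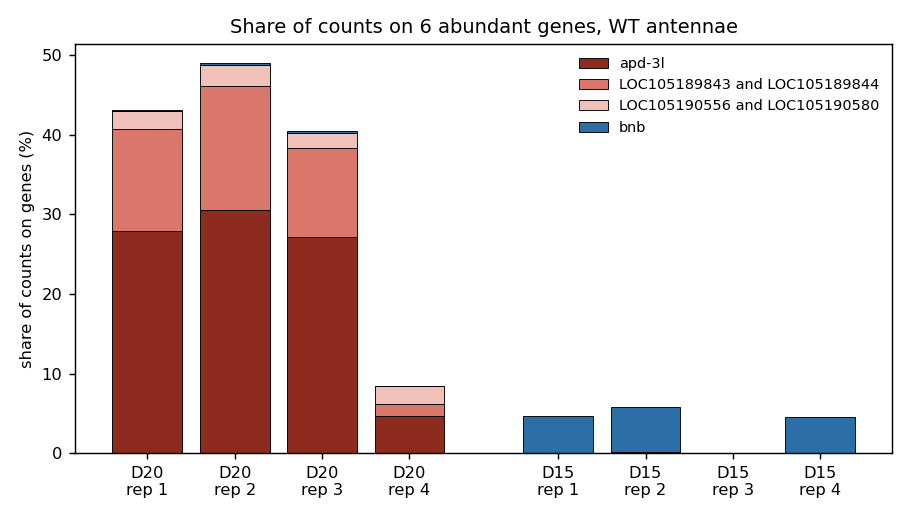
Stacked bars give the share of all counts on genes (%) that 6 abundant genes took in each WT library, D20 replicates left and D15 replicates right. The gene apd-3l alone took 27.9, 30.6 and 27.1% in D20 replicates 1 to 3 and 4.64% in replicate 4, while bnb was the visible part of D15 replicates 1, 2 and 4.

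The gene with the most counts at D20 was apd-3l (LOC105189609), by its symbol a relative of the honey bee apidermins, a family of cuticular proteins of Hymenoptera. It had 8126331, 9621177, 7410874 and 946965 normalized counts in D20 replicates 1 to 4, against 2379.6, 16165, 8806 and 8577 in D15 replicates 1 to 4. The stages did not overlap, and replicate 4 was the low library of D20. The log2 change was 9.50 (standard error 1.17, adjusted p = 1.34e-05), or 722-fold, and apd-3l took 27.9, 30.6, 27.1 and 4.64% of the counts at D20, against 0.0157, 0.110, 0.0499 and 0.0593% at D15. It rested on no single library, with 9.18 to 9.94 when any 1 of the 8 was left out. It did not pass within sequencing batch 1, nor with a replicate block in the 8 WT libraries.

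The next genes by share at D20 have no symbol in the gene table used here and are given by ID. LOC105189843 had 2087875, 2630808, 1690247 and 188118 normalized counts in the D20 replicates, against 486, 5365, 419 and 1247 in the D15 replicates. LOC105189844, its neighbor, had 1660585, 2261319, 1356859.9 and 128758 at D20, against 248, 4436, 294 and 744 at D15. In both genes D20 replicate 4 was by far the lowest of its stage and still above every D15 library, and D15 replicate 2 was the highest of its stage. Their log2 changes were 9.77 (standard error 1.17, adjusted p = 1.00e-05) and 9.88 (standard error 1.27, adjusted p = 2.27e-05).

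LOC105190556 and LOC105190580, another neighboring pair, behaved differently in D20 replicate 4. LOC105190556 had 428844, 528679.5, 355235 and 270903 normalized counts at D20, against 245, 1523, 1759 and 295 at D15. LOC105190580 had 216659.7, 276092, 177113 and 196632 at D20, against 139, 872, 2803 and 117 at D15. Here D20 replicate 4 lay close to the other D20 libraries, and the stages did not overlap. The log2 changes were 8.69 (standard error 0.83, adjusted p = 5.20e-07) and 7.78 (standard error 0.94, adjusted p = 1.22e-05).

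Genes for structural proteins of the cuticle were mostly higher at D20. Of 17 measured members, 10 were higher at D20 (5.57% of all genes were) and 1 was lower (6.01%), with a median log2 change of 4.16 against −0.04 for all genes. Scaled by library size the median was 3.29 against −0.80. Without the pair of libraries that stood apart, 13 were higher and 1 lower. The list takes in symbols beginning with CPR, which were added after values had been seen, and the 7 members of the list as first written had 4 higher and a median of 4.22.

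Most of these genes encode proteins with the Rebers-Riddiford motif, which binds chitin. CPR28 (LOC105190358) had 27649.8, 28502, 24363 and 2246 normalized counts in the D20 replicates, against 2.58, 81.1, 0 and 118 in the D15 replicates. CPR17 (LOC105182694) had 5109, 4276, 3859 and 1810.5 at D20, against 14.6, 0, 25.6 and 5.99 at D15. CPR14 (LOC105182701) had 81369, 81289.6, 62556 and 12798 at D20, against 138, 308, 168 and 84.3 at D15. In all of these the stages did not overlap and D20 replicate 4 was the low library of D20. Their log2 changes were 8.64 (standard error 1.24, adjusted p = 7.70e-05) for CPR28, 8.42 (standard error 0.75, adjusted p = 2.24e-07) for CPR17 and 8.41 (standard error 0.68, adjusted p = 1.12e-07) for CPR14.

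Cpr97Ea (LOC105188032) is named after the fly gene of the same family. It had 137517, 108405, 134814 and 55767 normalized counts at D20, against 144, 878, 6075 and 805 at D15, a log2 change of 5.78 (standard error 1.09, adjusted p = 0.00109). D15 replicate 3 was the high library of D15, and without it the change was 7.46. Cpap3-d (LOC105191836), of the cuticular proteins analogous to peritrophins, had 26047, 26217, 21426 and 13345 at D20, against 115, 141, 1863 and 66.3 at D15, a log2 change of 5.32 (standard error 0.80, adjusted p = 0.000123). It too was highest at D15 in replicate 3, and its change was 7.65 without that library. Neither gene's stages overlapped.

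Some members had higher means at D10 than at D15. The D10 mean of Cpr97Ea was 9229 normalized counts, above its D15 mean of 1976. CPR27 (LOC105188040) had 5445, 4918, 4401 and 781 normalized counts at D20, against 35.2, 182, 155 and 159.5 at D15, a log2 change of 4.86 (standard error 0.91, adjusted p = 0.000959), and its mean at D10 was 33032. CPR19 (LOC105188123) had 5188, 4496, 4485 and 1296 at D20, against 84.2, 139, 198 and 428 at D15, with a change of 4.16 (standard error 0.56, adjusted p = 4.13e-05) and a D10 mean of 2028. In Cpr92F (LOC112588753) the counts were 8694, 9876, 5379 and 74.99 at D20, against 24.9, 57.1, 55.1 and 44.9 at D15, and the D10 mean was 21238. D20 replicate 4 of Cpr92F lay just above the D15 libraries, and its change of 7.04 (standard error 1.89, adjusted p = 0.0165) did not pass the threshold without D15 replicate 1 (adjusted p = 0.0516). The levels at D10 come from 3 libraries and were not compared by a test here.

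One cuticular protein gene moved the other way. CPR16 (LOC105188007) had 76.5, 93.3, 68.9 and 28.3 normalized counts at D20, against 371, 23029.8, 124 and 23320.3 at D15, a log2 change of −7.48 (standard error 1.41, adjusted p = 0.00108). The stages did not overlap, but D15 fell into a low pair, replicates 1 and 3, and a high pair, replicates 2 and 4, a spread that recurs in the genes of the apical surface described below.

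**Figure D2:**
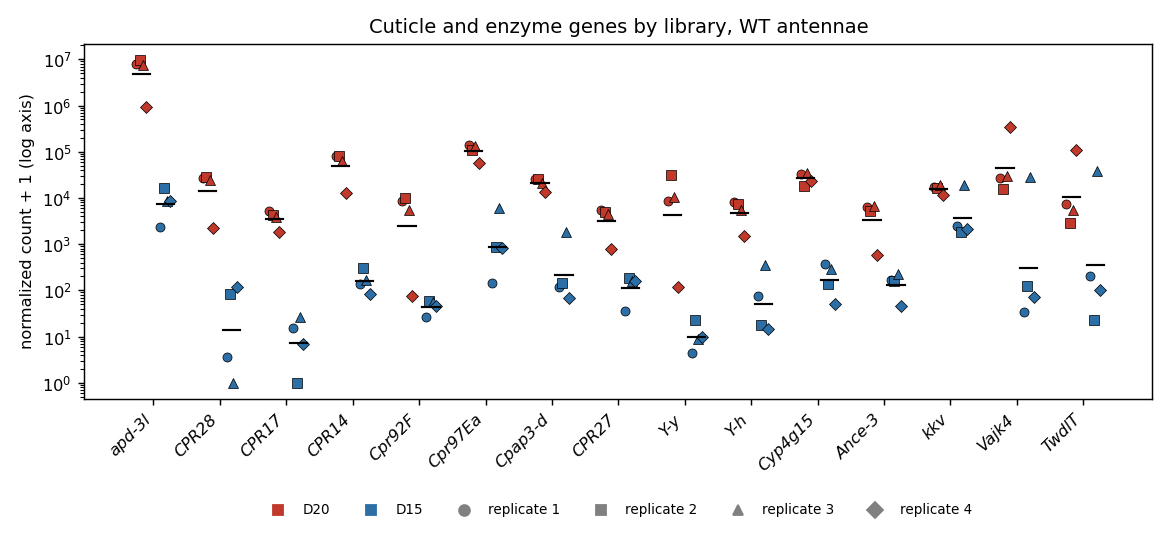
Normalized count plus 1 (log axis) of cuticle and enzyme genes in each WT library, D20 (red) left of D15 (blue), symbols marking replicates and short lines the geometric means. D20 replicate 4 (diamond) was the low D20 library of most cuticle genes and the high one of Vajk4 and TwdlT, in which D15 replicate 3 (triangle) lay among the D20 libraries.

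The yellow family and the enzymes that finish the cuticle rose in part. Y-y (LOC105182350), the counterpart of fly yellow, a secreted protein required for black pigment, had 8765, 30714, 10248 and 115 normalized counts at D20, against 3.44, 21.4, 7.68 and 8.99 at D15. D20 replicate 4 was far below the other D20 libraries and above all D15 libraries, and the log2 change was 10.22 (standard error 1.67, adjusted p = 0.000274). Y-h (LOC105186374), another member of the family, had 8095, 7338, 5510.2 and 1472 at D20, against 73.05, 16.9, 359.8 and 13.5 at D15, a change of 5.62 (standard error 0.94, adjusted p = 0.000330), with the stages apart. Of 5 yellow genes these were the 2 that passed, both higher, and Y-f, at a D10 mean of 10667, had means of 54.6 at D20 and 183 at D15.

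Of 10 genes of chitin synthesis and turnover, 2 were higher (20%, where 5.57% of all genes were), with a list median of 0.96. Without the pair that stood apart 6 were higher, where 1015 of all genes were. Cda5 (LOC105188239), a chitin deacetylase, had 11709, 13731, 17057 and 17805 normalized counts at D20, against 1992, 3513, 2303 and 3045 at D15, a log2 change of 2.46 (standard error 0.42, adjusted p = 0.000383). Its stages did not overlap and the libraries of a stage lay close together. In kkv (LOC105189308), the chitin synthase, the counts were 16864, 16338, 18664 and 11856 at D20, against 2459, 1789, 18912 and 2163 at D15, and D15 replicate 3 was above every D20 library. The change of kkv was 1.33 (adjusted p = 0.131) with all libraries and 2.88 without D15 replicate 3, where it passed (adjusted p = 5.18e-06). verm (LOC105189656), a chitin deacetylase, had 50927, 43329, 43261 and 84267 at D20, against 9626, 8763, 50003 and 7540.5 at D15, where again replicate 3 overlapped D20, and its change of 1.54 (standard error 0.49, adjusted p = 0.0431) missed the threshold without any 1 of the other 7 libraries (adjusted p of up to 0.140). Without D15 replicate 3 the change of verm was 2.66.

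Among 6 detoxification enzymes 3 were higher (50%, where 5.57% of all genes were), or 2 without the pair that stood apart. Cyp4g15 (LOC105182578) is a cytochrome P450 of the subfamily whose fly member Cyp4g1 makes cuticular hydrocarbons. It had 33283, 18498, 34882 and 23823 normalized counts at D20, against 379.9, 134, 283 and 49.4 at D15, a log2 change of 7.02 (standard error 1.17, adjusted p = 0.000325) with no overlap. GstD1 (LOC105189222), a glutathione S-transferase, had 6824, 7079, 4787 and 4002 at D20, against 3490.0, 2063, 1515 and 1564 at D15, a change of 1.39 (standard error 0.33, adjusted p = 0.00702), also with no overlap. Cyp303a1 (LOC105190954), which in flies acts in sensory organs, had 127, 96.9, 134 and 28675 at D20, against 129.8, 163, 613 and 131 at D15. Only D20 replicate 4 was high, and the change of 4.79 (standard error 1.501, adjusted p = 0.0402) was −1.07 without it, while it also missed the threshold without D15 replicate 1, 2 or 4 (adjusted p reaching 0.515 over these fits).

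Further enzymes and a transporter also rose. Ance-3 (LOC105191653), a relative of angiotensin-converting enzyme, had 6250.3, 5141, 6633 and 596 normalized counts at D20, against 164, 157, 230.5 and 44.2 at D15, a log2 change of 4.97 (standard error 0.70, adjusted p = 6.44e-05) with no overlap. Pcd (LOC105183235), which recycles the pterin cofactor of tyrosine hydroxylation, had 3471, 4172, 2507 and 2595 at D20, against 1430.0, 934, 1249.7 and 769.6 at D15, a change of 1.53 (standard error 0.36, adjusted p = 0.00696), and was the 1 of 8 tanning and pigment genes to pass, where 4 passed without the pair that stood apart. snu (LOC105188958) and snsl (LOC105187631), whose fly counterparts build the barrier layer of the cuticle, rose as well. snu had 10589, 6571, 14089.8 and 9129 at D20, against 422, 399, 4259.8 and 1301 at D15, a change of 2.65 (standard error 0.63, adjusted p = 0.00702). snsl had 9009, 8626, 6264 and 3467 at D20, against 343, 215, 2220.2 and 146 at D15, a change of 3.23 (standard error 0.66, adjusted p = 0.00212). In both, D15 replicate 3 was the high library of D15, no stages overlapped, and the change of snsl was 4.86 without that library. snu and snsl were named after their values had been seen.

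Some genes, among them genes of the cuticle, separated libraries rather than stages. Vajk4 (LOC105181299) had 26823, 15736, 29812 and 336246 normalized counts at D20, against 33.5, 125, 27999 and 70.8 at D15. TwdlT (LOC105187437), a Tweedle-family cuticular protein, had 7417, 2935, 5414 and 110444 at D20, against 199, 21.4, 38153 and 99.6 at D15. CSP2 (LOC105192342), a chemosensory protein by its symbol, had 926, 717, 678 and 34425 at D20, against 229, 82.9, 102269 and 129 at D15. In each, D15 replicate 3 and D20 replicate 4 were the high libraries of their stage and the stages overlapped. They did not pass the test between stages, and they were named after their values had been seen.

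Genes for proteins of the apical surface were among those that fell. Of 9 genes for ZP domain proteins, 5 were lower at D20, where 6.01% of all genes were, with a median of −3.58. Of 12 genes of the Osiris family, 5 were lower, with a median of −4.70. Scaled by library size, the medians were −4.18 and −5.21 against −0.80 for all genes, and without the pair that stood apart 5 of each list were lower. Both lists were added after values had been seen.

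ZP domain proteins attach the apical membrane to the overlying matrix, and in flies they shape epidermal hairs. tyn (LOC105186839) had 378, 319.8, 304 and 425 normalized counts at D20, against 12119.9, 60338, 761 and 97939 at D15. neo (LOC105188407) had 193, 361, 251 and 2803 at D20, against 5605, 80450.0, 707 and 99049.7 at D15. pio (LOC105189520) had 2342, 3132, 2683 and 3505 at D20, against 2981, 24111, 6146 and 16459.6 at D15. In these genes D15 replicates 2 and 4 were the high libraries, and in neo and pio the lowest D15 library overlapped the D20 libraries. The log2 changes were −6.93 (standard error 1.08, adjusted p = 0.000183) for tyn, −5.72 (standard error 1.36, adjusted p = 0.00705) for neo and −2.11 (standard error 0.57, adjusted p = 0.0170) for pio, and that of pio missed the threshold without D15 replicate 2, D20 replicate 1 or D20 replicate 3 (adjusted p of up to 0.0908).

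Other ZP genes were high in other libraries of the same stage. dsx-c73A (LOC105185298) had 160.0, 218, 157 and 1694 normalized counts at D20, against 46505, 10646, 33555 and 7357 at D15, a log2 change of −5.47 (standard error 0.94, adjusted p = 0.000447). m (LOC105185057), the counterpart of fly miniature, had 133, 139, 188 and 601 at D20, against 7895, 1819, 2120.3 and 809 at D15, a change of −3.58 (standard error 0.85, adjusted p = 0.00720). D15 replicates 1 and 3 were the higher pair in both, D20 replicate 4 was the high library of its stage, and the stages did not overlap. In dyl (LOC105186817), the counterpart of dusky-like, D15 spread over 13369, 156, 54746 and 4.12 and D20 over 130.2, 124, 159.9 and 1439.6, and the gene did not pass (adjusted p = 0.0961).

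Osiris genes encode membrane proteins found in insects, many of them in 1 syntenic array. Osi24 (LOC105192029) had 53.8, 43.6, 107 and 65.5 normalized counts at D20, against 8028, 6232, 656 and 196 at D15, a log2 change of −5.82 (standard error 1.14, adjusted p = 0.00151). Osi2 (LOC105192039) had 9.91, 14.5, 16.0 and 109 at D20, against 958, 495, 16962 and 125 at D15, a change of −6.88 (standard error 1.25, adjusted p = 0.000725), which was −3.78 without D15 replicate 3. Neither gene overlapped between stages. Osi16 (LOC105192088) had 2.83, 6.06, 4.92 and 65.0 at D20, against 88389, 95.4, 42847 and 21.4 at D15, a change of −10.61 (standard error 2.49, adjusted p = 0.00648). Its D15 level rested on replicates 1 and 3, while replicate 2 lay just above the D20 libraries and replicate 4 among them. Within sequencing batch 3 the sign of Osi16 turned, to 1.56.

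A pair of genes without a symbol was among the 5 with the highest share of counts at D15. LOC105187852 had 36.8, 76.3, 60.3 and 296 normalized counts at D20, against 235962, 64996, 53328 and 33.3 at D15, a log2 change of −9.56 (standard error 2.24, adjusted p = 0.00646). LOC105192464 had 34.0, 138, 117 and 257 at D20, against 232438, 242, 107147 and 0.75 at D15, a change of −9.28 (standard error 2.66, adjusted p = 0.0244). The counts at D15 rested on replicates 1 to 3 in LOC105187852 and on replicates 1 and 3 in LOC105192464. Both genes overlapped between stages through D15 replicate 4, and within batch 3 their differences were 3.11 and 7.20, toward higher at D20. The call of LOC105192464 was lost without D15 replicate 1 or without D20 replicate 1, 2 or 3 (adjusted p reaching 0.0773).

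Of 5 genes for the actin of bristles and hairs, a list added after values had been seen, 2 were lower. singed (LOC105187144), the actin bundler fascin, had 538, 439, 634 and 1242 normalized counts at D20, against 11248, 13551, 5751 and 10763 at D15. D15 replicate 3 was the lowest of D15 and D20 replicate 4 the highest of D20, and the log2 change was −3.88 (standard error 0.50, adjusted p = 2.11e-05). ck (LOC105183078), a myosin of the myosin VIIa class, had 413, 447, 540.1 and 756 at D20, against 1743, 2167, 996 and 2359 at D15, a change of −1.77 (standard error 0.30, adjusted p = 0.000456). Neither gene overlapped between stages.

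**Figure D3:**
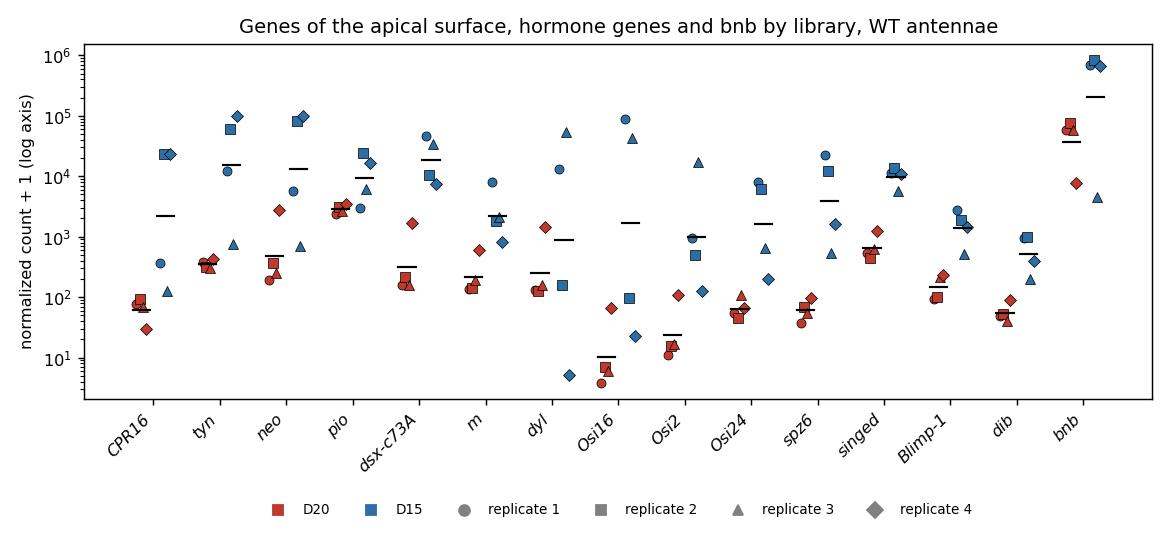
Normalized count plus 1 (log axis) of genes of the apical surface, hormone genes and bnb in each WT library, D20 (red) left of D15 (blue), with geometric means as short lines. The D15 libraries spread over orders of magnitude in CPR16, tyn, neo, dyl and Osi16, while singed, Blimp-1 and dib were lower in every D20 library than in any D15 library.

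Several secreted and signaling proteins were among the largest falls with a symbol. spz6 (LOC105185162), of the Spätzle family of Toll ligands, had 36.8, 66.6, 52.9 and 95.1 normalized counts at D20, against 22767, 11986, 543 and 1592 at D15, a log2 change of −7.19 (standard error 1.28, adjusted p = 0.000625). mas (LOC105186338), a serine protease homolog that in flies anchors cells to the matrix, had 108, 92.1, 123 and 448 at D20, against 7188, 5846, 1844 and 1501 at D15, a change of −4.41 (standard error 0.85, adjusted p = 0.00124). NPF (LOC105189899), the precursor of neuropeptide F, had 4.25, 4.85, 8.61 and 129 at D20, against 988, 1047, 448 and 255 at D15, a change of −4.16 (standard error 0.84, adjusted p = 0.00190). In none of these did the stages overlap, and D20 replicate 4 was the high library of D20 in each. The change of NPF was −6.79 without that library.

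Other falls were spread over functions. PGRP-S3 (LOC105186604), a peptidoglycan recognition protein, had 45.3, 44.8, 35.7 and 212 normalized counts at D20, against 626, 1558, 222 and 2939.9 at D15, a log2 change of −3.98 (standard error 0.75, adjusted p = 0.000994). gwl (LOC105181615), the mitotic kinase Greatwall by its symbol, had 194, 275, 268 and 307 at D20, against 860.2, 5597, 344 and 9373 at D15, a change of −3.98 (standard error 0.84, adjusted p = 0.00296). lds (LOC105188497), the counterpart of the fly helicase-like protein Lodestar, had 48.1, 35.1, 35.7 and 181 at D20, against 1645, 3407, 909 and 811 at D15, a change of −4.48 (standard error 0.67, adjusted p = 0.000123). No stages overlapped in these genes, and D20 replicate 4 was the highest D20 library in each.

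A few genes of the ecdysone pathway changed, in both directions. Of 11 response genes, 1 was higher and 1 lower, where 5.57% of all genes were higher and 6.01% lower. The list median was 0.13, or −0.55 by library size. Counts of 1 in so short a list are not read as a change of the list. ftz-f1 (LOC105187567), the nuclear receptor that marks the interval after an ecdysone pulse in flies, had 3068, 3129, 2940.2 and 417 normalized counts at D20, against 124, 109, 844 and 195 at D15. D20 replicate 4 was below D15 replicate 3, so the stages overlapped through the pair that stood apart, and the log2 change of 2.91 (standard error 0.58, adjusted p = 0.00173) was 4.44 without both. Blimp-1 (LOC105188360), an ecdysone-induced repressor of ftz-f1 in flies, had 90.6, 98.1, 212 and 231 at D20, against 2778, 1898, 507 and 1425 at D15, a change of −3.40 (standard error 0.79, adjusted p = 0.00587) with no overlap. ImpE1 (LOC105191267), named in flies for its induction by ecdysone, is not on that list. It had 87.8, 73.9, 117 and 301 at D20, against 2498, 4199, 412 and 4456 at D15, a change of −4.33 (standard error 0.76, adjusted p = 0.000519) with no overlap.

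The receptor itself and other factors gave no call. Ecr (LOC105187295) had 1145, 1244, 1347 and 1485 normalized counts at D20, against 1651, 1112, 2398 and 1454 at D15. Eip93F (LOC105183699), the factor E93 of adult development, had 9757, 10965, 16070.4 and 10734 at D20, against 18258, 17201, 14478 and 24469.7 at D15. Hr3 (LOC105191883) had 10608, 9921, 17824 and 9268 at D20, against 10406, 9840.5, 6403 and 1579 at D15. The stages overlapped in all of these, with log2 changes of −0.35, −0.66 and 0.74 (adjusted p = 0.594, 0.194 and 0.496). Scaled by library size the change of Hr3 was −0.037.

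Of 8 genes for ecdysone synthesis and inactivation, 2 were lower (25%, where 6.01% of all genes were). dib (LOC105188651), a P450 of the ecdysone pathway, had 48.1, 52.1, 39.4 and 89.8 normalized counts at D20, against 943, 969, 196 and 392.1 at D15, a log2 change of −3.45 (standard error 0.45, adjusted p = 2.88e-05) with no overlap. sad (LOC105191917), the next P450 of that pathway in flies, had 600.2, 573, 566 and 1622 at D20, against 2263, 7701, 855 and 2545 at D15. D20 replicate 4 lay above D15 replicate 3, and the change of −2.01 (standard error 0.54, adjusted p = 0.0167) did not pass without D15 replicate 2 or without D20 replicate 1, 2 or 3 (adjusted p reaching 0.145), and it was −1.19 without D15 replicate 2. Jhbp2 (LOC105182649), a juvenile hormone binding protein by its symbol, had 907, 705, 992 and 909 at D20, against 21509.5, 4802, 11406 and 1807 at D15, a change of −3.50 (standard error 0.67, adjusted p = 0.00130).

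Among 5 clock genes, a list added after values had been seen, 2 were higher (40%, where 5.57% of all genes were), or 1 without the pair that stood apart. The list median was 0.28, or −0.44 by library size. cyc (LOC105191946), the partner of Clock, had 1439.8, 1489, 1744 and 967 normalized counts at D20, against 63.6, 55.3, 128 and 15.4 at D15, a log2 change of 4.45 (standard error 0.61, adjusted p = 5.08e-05) with no overlap. per (LOC105185903) had 4491, 4302, 5340.4 and 8546 at D20, against 1271, 87.4, 873 and 72.3 at D15, where replicates 1 and 3 were high. Its stages did not overlap, but its change of 3.29 (standard error 1.01, adjusted p = 0.0357) missed the threshold without D15 replicate 2 or 4, without any 1 D20 library (adjusted p reaching 0.101) and without the pair that stood apart (adjusted p = 0.0664), and the hour at which antennae were taken is not stated. Clk itself had means of 2773 at D20 and 2250.1 at D15 and did not pass.

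In the lists of synaptic release and axon guidance 1 gene each passed the test. The marker nSyb (LOC105189534), a synaptic vesicle protein of neurons, had 4931, 4818, 6994 and 4582 normalized counts at D20, against 4367, 3132, 4398 and 3459 at D15. All D20 libraries lay above the D15 libraries, but the log2 change of 0.46 did not pass (adjusted p = 0.156), and it was −0.30 by library size. Syt1 (LOC105183410) had a change of 0.38 (adjusted p = 0.498), or −0.31 by library size. The other neuron markers of the study, fne (LOC105190174) and onecut (LOC105183587), had changes of −0.59 and −0.003 and did not pass (adjusted p = 0.467 and 0.999). Of 22 genes of synaptic vesicle release 1 was higher (4.55%), Syt4, with a median of 0.21, and of 24 genes of axon guidance and adhesion 1 was higher (4.17%), Ephrin, with a median of 0.07. Both shares are near the 5.57% of all genes that were higher. By library size these medians were −0.47 and −0.63, both above the −0.80 of all genes. Without the pair that stood apart 3 of the genes of vesicle release were higher.

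Single genes of other neuronal lists passed with calls that rested on few libraries. Ephrin (LOC105190550), a guidance ligand, had 5255, 5796, 8014 and 5647 normalized counts at D20, against 1669.8, 2742, 4165 and 3801 at D15, a log2 change of 0.98 (standard error 0.30, adjusted p = 0.0347) that missed the threshold without D15 replicate 1 or 2 or D20 replicate 2 or 3 (adjusted p reaching 0.117). pdm3 (LOC105188889), a POU domain factor, was the 1 of 14 factors of neuron differentiation to pass, with 489.8, 621, 506 and 293 at D20, against 237, 77.6, 344 and 157 at D15. Its stages overlapped, and its change of 1.22 (standard error 0.38, adjusted p = 0.0388) was lost without any 1 library other than D15 replicate 3 or D20 replicate 4 (adjusted p of up to 0.125).

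Of 21 channel and excitability genes 3 were higher (14.3%, where 5.57% of all genes were), with a median of 0.11, or −0.57 by library size. Shab (LOC105192186), a voltage-gated potassium channel, had 1651, 1065, 2447 and 872 normalized counts at D20, against 397, 204, 725 and 154 at D15, a log2 change of 2.02 (standard error 0.45, adjusted p = 0.00405) with no overlap. Hk (LOC105189866), a subunit of potassium channels, had 416, 368, 727 and 283 at D20, against 87.7, 112, 259.9 and 65.5 at D15, a change of 1.77 (standard error 0.46, adjusted p = 0.0145). qvr (LOC105191880), a regulator of potassium channels in flies, had 2350.0, 1694, 3119 and 1404 at D20, against 908, 564, 1475 and 459 at D15, with overlap and a change of 1.32 (standard error 0.39, adjusted p = 0.0303). In all of these D15 replicate 3 was the high library of D15. The call of Hk was lost without D15 replicate 1 or 4 or D20 replicate 3, and that of qvr also without D15 replicate 2 or D20 replicate 1 (adjusted p of up to 0.0667 and 0.113). cac (LOC105185443), a calcium channel gene of the same list, did not change, at −0.001 (standard error 0.47, adjusted p = 0.9996). It had 1270, 770, 2424 and 1510 at D20, against 1615, 1232, 2142 and 923 at D15.

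Of 8 nicotinic acetylcholine receptor subunits, a list added after values had been seen, 2 were higher (25%, where 5.57% of all genes were). The list median was 0.46, or −0.13 by library size. nAChRalpha2 (LOC105190488) had 344, 458, 555 and 435 normalized counts at D20, against 73.05, 82.9, 124 and 51.3 at D15, a log2 change of 2.43 (standard error 0.35, adjusted p = 7.03e-05). Every D20 library was above every D15 library, by a change of 2.26 to 2.68 without any 1 of them. nAChRa3 (LOC105190849) had 1062, 761, 1391 and 1082 at D20, against 562, 374, 580.0 and 441 at D15, a change of 1.12 (standard error 0.34, adjusted p = 0.0329) that did not pass without D15 replicate 1, 2 or 4 or D20 replicate 1 or 3 (adjusted p reaching 0.106). Syt4 (LOC105183540), a synaptotagmin of dense-core vesicles, had 5944, 4967, 8277 and 5175 at D20, against 2445, 1992, 4212 and 1986 at D15, a change of 1.18 (standard error 0.30, adjusted p = 0.0116) that did not pass without D20 replicate 3 (adjusted p = 0.0518).

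Few odorant receptor (Or) genes passed the test, while orco fell. HsOrco had 2179, 1998, 2735 and 3461 normalized counts at D20, against 8465, 10869, 3502 and 11921 at D15. The stages did not overlap, D15 replicate 3 standing just above the highest D20 library, and the log2 change was −1.77 (standard error 0.43, adjusted p = 0.00796). Of 360 Or genes tested, 2 were higher and 4 lower, with orco counted among the lower, 1.67% in all where 11.6% of all genes tested were called, and the median was −0.07, or −0.81 by library size where that of all genes was −0.80. Many Or genes lie in tandem arrays of similar sequence, and reads that map to several places are not in the counts, so values of single members are uncertain.

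The 19 tandem loci with at least 3 Or genes tested had medians between −0.38 and 0.37, and none held more than 1 called gene. HsOr377 rose, with 501, 365, 289 and 314 normalized counts at D20, against 224, 162, 215 and 132 at D15, a log2 change of 0.99 (standard error 0.22, adjusted p = 0.00396) with no overlap. HsOr373 fell, with 0, 0, 1.23 and 6.50 at D20, against 37.8, 67.8, 34.6 and 7.86 at D15, a change of −3.91 (standard error 1.01, adjusted p = 0.0145) that missed the threshold without D20 replicate 3 (adjusted p = 0.0504) and was −6.08 without D20 replicate 4. HsOr327 had 8.49, 7.27, 12.3 and 6.50 at D20, against 103, 52.6, 16.6 and 32.2 at D15, and HsOr5 had 32.6, 50.9, 57.8 and 36.6 at D20, against 91.1, 88.3, 74.3 and 88.0 at D15, with changes of −2.58 (standard error 0.82, adjusted p = 0.0432) and −0.96 (standard error 0.31, adjusted p = 0.0457). HsOr176 had 68.0, 50.9, 30.8 and 138 at D20, against 26.6, 8.92, 33.3 and 15.0 at D15, a change of 1.78 (standard error 0.53, adjusted p = 0.0293). The call of HsOr327 was lost without D15 replicate 1 or 2 or any 1 D20 library, that of HsOr5 without D15 replicate 1, 2 or 4 or D20 replicate 1, 2 or 4, and that of HsOr176 without D15 replicate 2 or 4 or D20 replicate 1 or 4, with adjusted p-values of up to 0.147, 0.145 and 0.119.

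Among 19 ionotropic receptor genes 3 were higher (15.8%, where 5.57% of all genes were), all of them Ir75f genes. HsIr75f.1 had 136, 113, 81.2 and 65.5 normalized counts at D20, against 4.3, 0.89, 15.4 and 0 at D15, a log2 change of 4.45 (standard error 0.80, adjusted p = 0.000711). HsIr75f.2 had 113, 94.5, 77.5 and 128 at D20, against 52.4, 38.3, 32.0 and 22.9 at D15, a change of 1.49 (standard error 0.27, adjusted p = 0.000812). In these the stages did not overlap. HsIr75f.3 had 92.0, 44.8, 78.7 and 119 at D20, against 40.4, 19.6, 53.8 and 31.8 at D15, with overlap and a change of 1.19 (standard error 0.36, adjusted p = 0.0318) that missed the threshold without D15 replicate 1, 2 or 4 or D20 replicate 1, 3 or 4 (adjusted p reaching 0.111). The list median was 0.50, or −0.20 by library size against −0.80 for all genes. The co-receptor HsIr8a, at 130.2, 121, 102 and 135 at D20 against 115, 111, 124 and 156 at D15, did not pass. Nor did the co-receptors HsIr76b, HsIr25a.1 and HsIr25a.2, with changes of 0.91, −0.68 and −0.74 (adjusted p = 0.0815, 0.676 and 0.523). Of 9 gustatory receptor genes 1 was lower. That gene, HsGr9, had 201, 182, 165 and 168 at D20, against 425, 495, 205 and 375 at D15, and its change of −1.08 (standard error 0.34, adjusted p = 0.0406) did not pass without any 1 of the libraries other than D15 replicate 3 (adjusted p of up to 0.133).

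Of 31 genes for cilia and intraflagellar transport, which build the sensory dendrite, 1 was lower and the median was −0.03, and without the pair that stood apart 1 was higher and 2 lower. IFT46 (LOC105186128) had 256, 286, 279 and 303 normalized counts at D20, against 814, 687, 334 and 865 at D15, a log2 change of −1.28 (standard error 0.26, adjusted p = 0.00218). D15 replicate 3 was the low library of D15 and still above D20.

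**Figure D4:**
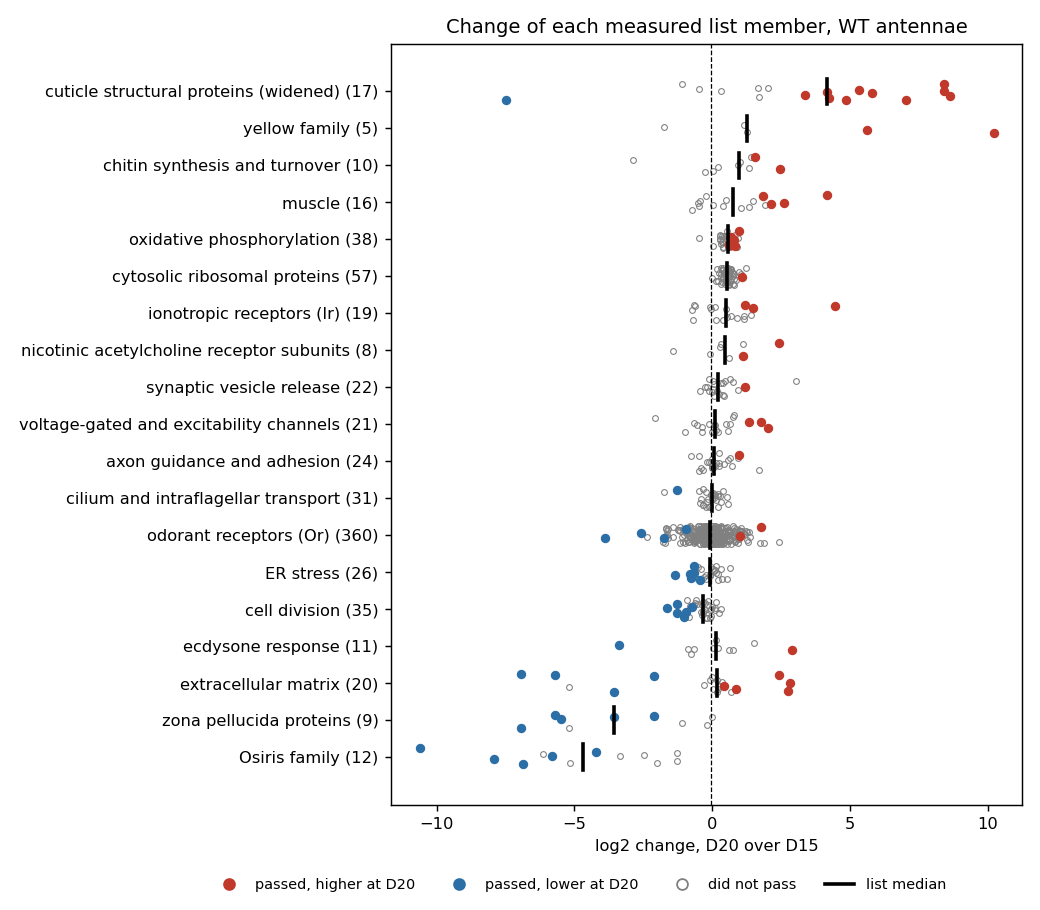
Each point is the log2 change, D20 over D15, of 1 measured member of a gene list in WT antennae, filled where it passed the test (red higher at D20, blue lower), with the list median as a bar and the number measured in parentheses. The median of the cuticle list lay right of 0 and those of the Osiris and ZP lists left of it under each scaling, while the positive medians of oxidative phosphorylation (0.56), ribosomal proteins (0.54), Ir genes (0.50), acetylcholine receptors (0.46), synaptic release (0.21), extracellular matrix (0.18), ecdysone response (0.13), channels (0.11) and axon guidance (0.07) fell below 0 by library size.

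Genes of energy metabolism rose in part, while 1 gene of the ribosomal list passed. Of 38 genes for oxidative phosphorylation 9 were higher (23.7%, where 5.57% of all genes were) and 37 had a positive change, with a median of 0.56, or −0.24 by library size where all genes were at −0.80. ND-MLRQ (LOC105192127), a subunit of complex I, had 2872, 3195, 2196 and 1750.2 normalized counts at D20, against 1629, 1236, 1061 and 1100.3 at D15, a log2 change of 0.98 (standard error 0.29, adjusted p = 0.0273). ATPsynB (LOC105191530), of the ATP synthase, had 4871, 5149, 4228 and 4645 at D20, against 2905, 3282, 1547 and 2918 at D15, a change of 0.81 (standard error 0.24, adjusted p = 0.0298). The stages did not overlap in either, but each call was lost without D15 replicate 3 or D20 replicate 1 or 2, and that of ND-MLRQ also without D15 replicate 2 or 4 (adjusted p reaching 0.102 and 0.0817). All 57 cytosolic ribosomal protein genes had a positive change, with a median of 0.54, or −0.28 by library size, and 1 passed (1.75%), RpL8 (LOC105186811), at 1.07 (standard error 0.33, adjusted p = 0.0364), a call lost without D15 replicate 2, 3 or 4 or D20 replicate 1 or 2 (adjusted p reaching 0.121).

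Some genes of protein folding in the endoplasmic reticulum (ER) fell. Of 26 ER stress genes 6 were lower (23.1%, where 6.01% of all genes were), with a median of −0.08 near that of all genes, and 4 were lower without the pair that stood apart. Hsc70-3 (LOC105181048), the ER chaperone BiP, had 10511, 10426, 11917 and 14478 normalized counts at D20, against 34952, 34997, 22355 and 27258 at D15. All D20 libraries were below all D15 libraries, and the log2 change of −1.35 (standard error 0.18, adjusted p = 4.62e-05) stayed between −1.47 and −1.27 when any 1 library was left out. Pdi (LOC105182389), protein disulfide isomerase, had 9530.4, 8968, 9649.9 and 17235 at D20, against 18266, 25074, 14258 and 20733 at D15, a change of −0.81 (standard error 0.22, adjusted p = 0.0167), where D20 replicate 4 lay above D15 replicate 3. That call was lost without D15 replicate 2 or D20 replicate 1, 2 or 3 (adjusted p reaching 0.0744). Xbp1 (LOC109504605), of the same list, did not pass, with a change of −0.24 (standard error 0.29, adjusted p = 0.700). It had 6061, 5638, 7976 and 10480 at D20, against 7384, 7019.5, 12173 and 8712 at D15. Of 28 genes of the secretory pathway 4 were higher (14.3%, where 5.57% of all genes were), with a median of 0.15, or −0.61 by library size. Among the 4 was ergic53 (LOC105192392) at 0.65 (standard error 0.17, adjusted p = 0.0120). It was −0.16 by library size and missed the threshold without D20 replicate 1 (adjusted p = 0.0512).

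Genes of cell division were lower where they changed. Of 35 genes 6 were lower (17.1%, where 6.01% of all genes were), with a median of −0.34, or −1.13 by library size, and 10 were lower without the pair that stood apart. Cdk1 (LOC105185671), the mitotic kinase, had 68.0, 80.0, 48.0 and 57.9 normalized counts at D20, against 155, 212, 137 and 279.8 at D15, a log2 change of −1.64 (standard error 0.31, adjusted p = 0.00102) with no overlap. borr (LOC105181635), a subunit of the chromosomal passenger complex, had 127, 165, 125 and 149 at D20, against 303, 534, 141 and 374 at D15, a change of −1.27 (standard error 0.28, adjusted p = 0.00461), D15 replicate 3 lying among the D20 libraries. Mcm3 (LOC105184711), of the replicative helicase, had 86.4, 71.5, 73.8 and 73.2 at D20, against 107, 162, 69.1 and 379.8 at D15, a change of −1.27 (standard error 0.36, adjusted p = 0.0238) that was lost without D15 replicate 4 or D20 replicate 2, 3 or 4 (adjusted p reaching 0.218). Mcm2 (LOC105180654), of the same helicase, had 113, 108, 111 and 93.9 at D20, against 136, 266, 89.6 and 299 at D15. Its change of −0.92 (standard error 0.32, adjusted p = 0.0730) did not pass, though it did without the pair that stood apart (adjusted p = 0.0358). Mean levels at D10 were 869.6 for Cdk1 and 854 for Mcm3.

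The basement membrane genes Col4a1, Ndg and SPARC rose, and they were named after their values had been seen. Col4a1 (LOC105186475), a type IV collagen chain, had 8592, 7384, 6929.9 and 4348 normalized counts at D20, against 459, 827, 1437 and 1098 at D15. Ndg (LOC105182555), nidogen, had 20775, 18001, 15785 and 10214 at D20, against 1389, 2472, 3402 and 2374 at D15. SPARC (LOC105183245), a collagen-binding protein, had 14307, 17012, 10800.1 and 8139 at D20, against 2538, 1945, 2494 and 2344 at D15. In none did the stages overlap, and the log2 changes were 2.82 (standard error 0.49, adjusted p = 0.000524), 2.74 (standard error 0.50, adjusted p = 0.000750) and 2.42 (standard error 0.36, adjusted p = 0.000105). The list of 20 extracellular matrix genes went both ways, with 5 higher and 4 lower, with a median of 0.18, or −0.58 by library size, and the lower ones were the ZP genes m, tyn, neo and pio described above.

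Markers of other cells gave mixed values. Of 16 muscle genes 4 were higher (25%, where 5.57% of all genes were), with a median of 0.76, or 0.01 by library size. Without the pair that stood apart 8 were higher, where 1015 of all genes were. Summed normalized counts of the list ranged between 37523 and 52302 at D20 and between 41713 and 47483 at D15. Mhc (LOC105191850), muscle myosin heavy chain, had 6032, 5605, 4482 and 2037 normalized counts at D20, against 391, 851, 1361 and 375 at D15, a log2 change of 2.604 (standard error 0.76, adjusted p = 0.0277) that was lost without D15 replicate 1, 2 or 4 or D20 replicate 1, 2 or 3 (adjusted p reaching 0.0833). Mlc1 (LOC105182055), a myosin light chain, had 1543, 2311, 1075 and 374 at D20, against 73.9, 0.89, 214 and 14.6 at D15, a change of 4.17 (standard error 0.95, adjusted p = 0.00514) with no overlap. Their part in other results was not tested.

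Of 6 genes of hemocytes and fat body 1 was higher and 1 lower (33.3% in all, where 11.6% of all genes were called). Their sums lay between 3402 and 4045 at D20 and between 2848 and 4766 at D15. apolpp (LOC105186170), the lipophorin precursor, had 889, 672, 754 and 226 normalized counts at D20, against 217, 25.9, 159 and 31.1 at D15, a log2 change of 2.56 (standard error 0.64, adjusted p = 0.0107) with no overlap. Mtp (LOC105192390), which loads lipid onto it, had 209.5, 184, 183 and 306 at D20, against 1155, 1543, 311 and 1147 at D15, a change of −2.25 (standard error 0.37, adjusted p = 0.000329) with no overlap. The glial factor repo had 917, 789, 1021 and 1324 at D20, against 789.8, 951, 732 and 1486 at D15, and Gli (LOC105181170), gliotactin, had 4835, 4238, 4982 and 4720.4 at D20, against 2882, 2789.8, 3212 and 2404 at D15, a change of 0.72 (standard error 0.16, adjusted p = 0.00449), or −0.030 by library size.

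bnb (LOC105189268), bangles and beads, which marks glia in the fly embryo, was among the 5 genes with the highest share of counts at D15. It had 58220.2, 74526, 58342 and 7733 normalized counts at D20, against 698774, 832542, 4556 and 656439 at D15. D15 replicate 3 was below every D20 library, and D20 replicate 4 was the low library of D20, so the stages overlapped. The log2 change was −3.47 (standard error 0.90, adjusted p = 0.0132), and −3.49 without both. bnb is on the list of 11 glial genes, of which 1 was higher and 1 lower (18.2% in all, where 11.6% of all genes were called). Summed counts of the list ranged between 47358 and 101157 at D20 and between 41100 and 854832 at D15.

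The other genes with the highest shares of counts at D15, mt:COI and yps, did not pass the test. mt:COI, the mitochondrial subunit I of cytochrome oxidase, had 162343, 144232, 93383 and 73243 normalized counts at D20, against 118280.4, 94110.1, 76167 and 72967 at D15, a log2 change of 0.38 (standard error 0.39, adjusted p = 0.634), or −0.46 by library size. yps (LOC105181494), a Y-box protein that binds RNA in flies, had 71523, 69892, 60447 and 52821 at D20, against 76190.4, 105503, 63046 and 98107 at D15, a change of −0.44 (standard error 0.25, adjusted p = 0.298). The stages overlapped in both. LOC105186084, a glucose dehydrogenase that the study names, had 1611, 2029, 1514 and 3264 at D20, against 107, 88.3, 1104 and 17.6 at D15, and its change of 2.68 (standard error 0.76, adjusted p = 0.0224) was lost without D15 replicate 1 or 2 (adjusted p reaching 0.0738). D15 replicate 3 was its high library of D15, and the change was 4.90 without it.

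Most of the changed genes carry no symbol. Of the called genes with no overlap and a mean of at least 100 normalized counts in the higher stage, 290 of 451 higher genes and 223 of 345 lower genes had none in the gene table. Called genes lay beside each other more often than single genes were called. In the order of the RefSeq gene table of assembly Hsal_v8.6, 8618 pairs of neighboring genes were both tested, and a gene next to a higher gene was itself higher in 19.2% of cases where 5.57% of all genes were, and a gene next to a lower gene was lower in 16.9% where 6.01% were. Runs of 3 or more neighbors numbered 14 for higher genes, with 45 genes, and 11 for lower genes, with 37. apd-3l, CPR28, Cpap3-d, Col4a1 and per each lay in such a run, Nep5 lay in 1 with LOC105189843 and LOC105189844, and Osi24 and Osi2 lay in 1 with LOC105192464. The counts ignore strand, so reads of genes that overlap on opposite strands cannot be told apart.

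Levels at D10 and D25 place the interval within pupal life. These levels are given without a test. apd-3l had means of 533, 8982, 6526337 and 8100681 normalized counts at days 10, 15, 20 and 25 APF. For tyn the means were 4960.3, 42789.5, 357 and 556 over the same stages. cyc was at 1.199, 65.6, 1410.1 and 1385, and nAChRalpha2 at 51.7, 82.9, 448 and 668. The means of apd-3l, cyc and nAChRalpha2 at D25 stayed near those at D20, while tyn was highest and CPR27 lowest at D15.

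**Figure D5:**
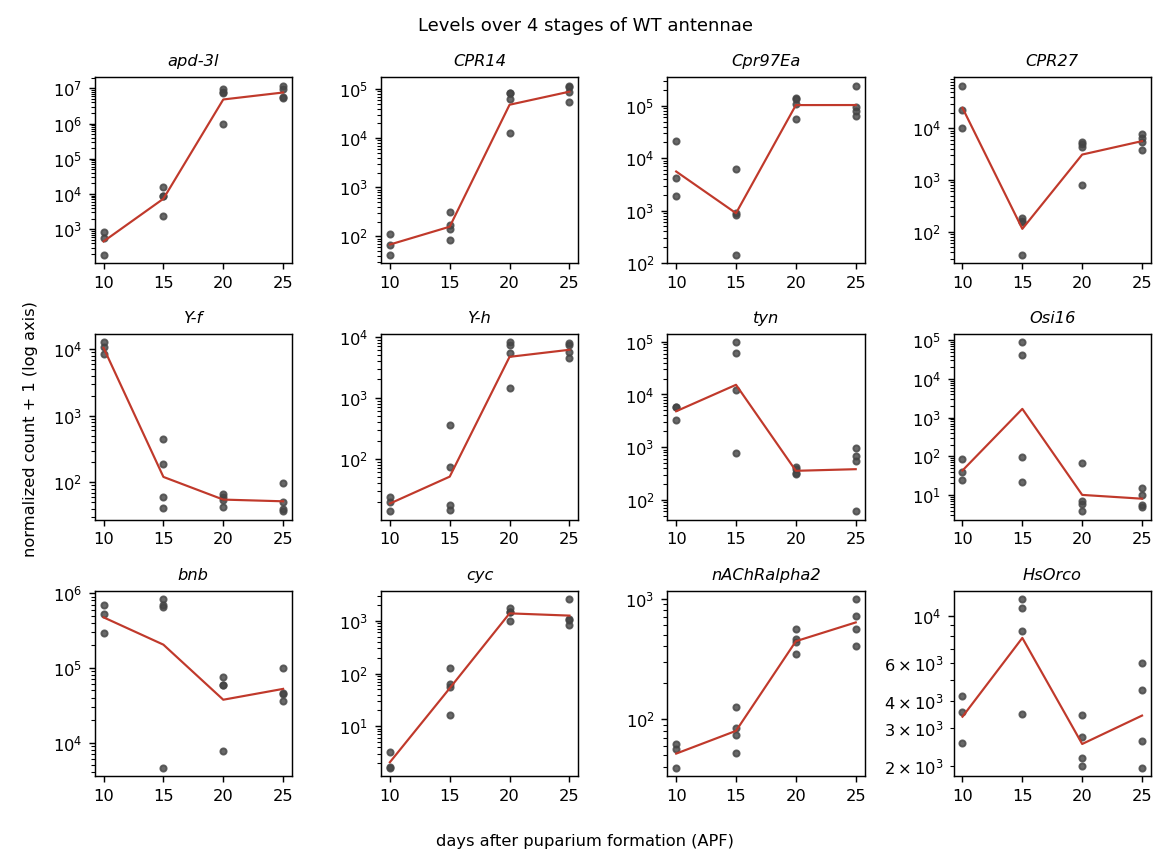
Normalized count plus 1 (log axis) of 12 genes against days APF in WT antennae, each point a library and the line the geometric mean of a stage. apd-3l, CPR14, cyc and nAChRalpha2 were high at D20 and D25, tyn was highest at D15, and CPR27 was high at D10 (mean 33032), low at D15 (133) and intermediate at D20 (3886).

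The orco mutants pass through the same interval in 6 other libraries, 3 at each stage, of sequencing batches 1, 3 and 3 at D20 and 2, 3 and 3 at D15, so that stage and batch are partly confounded in them. In mutants 1037 genes (9.35%) were higher and 1198 (10.8%) lower at D20 than at D15, together 2235 or 20.2%. Of the 617 genes that rose in WT, 458 also rose in mutants, 74.2% of the WT list and 44.2% of the mutant list. Of the 666 that fell in WT, 362 also fell in mutants, 54.4% and 30.2% of these lists. Called in opposite directions were 3 genes that rose in WT.

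Genes of the cuticle and apical surface also changed in mutants. apd-3l changed by 9.39 on the log2 scale in mutants and by 9.50 in WT, CPR14 by 9.15 and 8.41, and Cpap3-d by 8.52 and 5.32. tyn changed by −7.16 in mutants and −6.93 in WT, and singed by −3.40 and −3.88. The differences of these changes, mutant minus WT, were −0.11, 0.74, 3.21, −0.23 and 0.48 and did not pass (adjusted p of at least 0.141), which does not show that the genotypes are alike.

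The change differed between genotypes in 286 genes (2.58%), of which 269 (2.43%) changed toward lower in mutants and 17 (0.153%) toward higher, and 181 of the 286 were Or genes. The 17 depended on single libraries. They became 6 to 8 without mutant D15 replicate 3, mutant D20 replicate 2 or 3 or WT D20 replicate 2 or 3, 26 to 38 without WT D15 replicate 1, 3 or 4, 86 without WT D20 replicate 4, and 92 with DESeq2. The 269 became 174 without mutant D20 replicate 3 and 182 to 313 without any 1 of the others. Among the genes called in WT 22 were in this set. nSyb had a mutant change of −1.25 and a WT change of 0.46, a difference of −1.71 (standard error 0.31, adjusted p = 0.00291). The other neuron markers Syt1, fne and onecut had differences of −0.08, 0.13 and −3.01, and none passed (adjusted p = 0.991, 0.991 and 0.0754). orco had a mutant change of −4.25 and a WT change of −1.77, a difference of −2.48 (adjusted p = 0.0373). LOC105190591, a support cell marker of the study, had a mutant change of −2.90 and, in WT, 396, 423, 588 and 516 normalized counts at D20, against 584, 555, 496 and 504 at D15, with a difference of −2.73 (adjusted p = 0.000109). The other support cell markers did not share this fall. Mutant changes were 0.01 for sv (LOC105187024), −0.21 for LOC105188530 and 4.33 for LOC105182650, of which the last passed (adjusted p = 0.0206). Their differences from WT did not pass (adjusted p of at least 0.867). Fdx2 (LOC105181406), a mitochondrial ferredoxin, had a mutant change of 3.47 and a WT change of 0.97, a difference of 2.50 (adjusted p = 0.000432).

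Of the 360 Or genes tested, 277 were lower at D20 in mutants, where 10.8% of all genes were, against 4 in WT. HsOr293 had mutant means of 2.77 at D20 and 171 at D15 and, in WT, 93.4, 81.2, 93.5 and 154 normalized counts at D20, against 116, 41.9, 173 and 71.2 at D15, a difference of the changes of −5.88 (adjusted p = 0.000292). HsOr336 had mutant means of 4.17 at D20 and 234 at D15 and, in WT, 127, 93.3, 130.4 and 95.7 at D20, against 172, 55.3, 129 and 47.9 at D15, a difference of −5.89 (adjusted p = 0.000424). HsOr157 had mutant means of 0.924 at D20 and 107 at D15 and, in WT, 69.4, 38.8, 76.3 and 76.8 at D20, against 119, 99.9, 96.0 and 56.5 at D15, a difference of −6.06 (adjusted p = 0.000292). In WT these genes overlapped between stages. Of 31 cilium genes, 16 were lower in mutants at D20 and 7 differed between genotypes, against 1 lower in WT.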

How the data were processed

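Libraries were prepared from polyadenylated antennal RNA with the NEBNext Ultra II kit, without strand. The authors aligned reads with STAR 2.6.1d, trimming the longer reads of 1 batch, and deposited counts per gene, of which the unstranded column was used; reads that map to several places are not counted. The authors also deposited normalized counts, a signal made with DESeq2 1.34.0 size factors; recomputed from the deposited counts for all 27 libraries they differed by at most 4.10e-08. Every column was assigned to a sample by its name (0 were not). Replicates are separate libraries; whether they come from separate animals is not stated. Depth in the 8 libraries was 13772158 to 38608319 counts on genes.

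Genes averaging 10 counts or more over the libraries (11086 of 14407) were tested in 1 edgeR 4.0.16 quasi-likelihood model (R 4.3.3, TMM) of 8 groups of genotype and stage, with Benjamini-Hochberg adjusted p-values and a threshold of 0.05. The standard error is the absolute log2 change divided by the root of F. In simulated counts for this comparison over 11021 genes, 18.4% of genes changed by 1 on the log2 scale were recovered, 82.0% at 2, 83.7% at 3 and 86.0% at 4, and 5.63% of calls were false. These counts were drawn independently for each gene and library around a group mean, with the spread that the model estimated. They held no libraries that stood apart over many genes, so these shares may not hold for the real counts. Symbols came from the RefSeq gene table of assembly Hsal_v8.6 (4108 of 14407 IDs matched), which gave no product names, so lists were matched by symbol; no sequences were used. Cyp40 and 2 symbols that only resemble ribosomal proteins were kept out of the lists. Named genes are the cell type markers and genes the study names, the 12 largest rises and falls with a symbol, no overlap and a mean of at least 100, up to 3 per list, the 5 genes with the highest share at each stage and the 5 with the smallest adjusted p for the difference between genotypes; others were named after their values had been seen. Of the markers, those without a result of their own are given only as above the minimum. The members and lists were chosen with earlier results of these data known. Alternatives were DESeq2 1.42.0, other scalings and filters, the 8 WT libraries alone, a batch term or 1 batch, a replicate block, each library left out in turn and, added after seeing the data, both libraries that stood apart left out. For the batch 3 pair the log2 difference used a pseudocount of 1. The permutation test was exact.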

Additional observations from a re-analysis of the deposited data

Results flagged for a closer look

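Examined were 214 groups of 4 WT libraries, 1 at each stage for most named genes and for a share of counts. In 31 of them the gap of an end library to its nearest neighbor, as a share of the range, was above the critical value of Dixon's test. For normally distributed values chance alone gives this in about 1 in 20 groups. The normalized counts were taken without a log scale and often spread widely, so the 31 cannot be set against that rate. Of the 31, 16 came from D20 replicate 4 and 10 from D15 replicate 3, the libraries that stood apart over all genes, so these values are not independent of each other.

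D20 replicate 4 was the highest D20 library, with the gap as a share of the range given for each gene, for Cyp303a1 (0.999), sad (0.967), NPF (0.965), dsx-c73A (0.961), Osi16 (0.948), PGRP-S3 (0.945), Osi2 (0.938), neo (0.935), Pdi (0.918), mas (0.913), lds (0.911), m (0.882), LOC105187852 (0.848) and HsOr293 (0.831). Of these, all but Cyp303a1 and HsOr293 were called lower at D20 than at D15. It was the lowest D20 library for ftz-f1 (0.930) and CPR28 (0.842), which were called higher.

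D15 replicate 3 was the highest D15 library for kkv (0.961), Cpap3-d (0.958), verm (0.951), Osi2 (0.950), Cyp303a1 (0.931), the glucose dehydrogenase LOC105186084 (0.917), snsl (0.905), ftz-f1 (0.883) and Cpr97Ea (0.876). All of these but Osi2 had a positive log2 change. It was the lowest D15 library in the share of counts on the 10 most abundant genes (0.880).

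Other libraries at the end of a group were D15 replicate 2, highest at D15 for LOC105189844 (0.881) and LOC105189843 (0.833), D20 replicate 3, highest at D20 for nSyb (0.855) and Hr3 (0.843), and D20 replicate 1, highest at D20 for Mcm3 (0.843).

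The change from D15 to D20 differed between genotypes, by the interaction term of the model, in 286 genes. For the named ones the difference, mutant minus WT, was −6.06 on the log2 scale for HsOr157, −5.89 for HsOr336, −5.88 for HsOr293, −2.73 for LOC105190591, −2.48 for orco, −1.71 for nSyb and 2.50 for Fdx2.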

How the results depend on the processing

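Whether D20 and D15 libraries of the same replicate number belong together is not stated, and they were not treated as pairs. Correlations between so few libraries cannot settle it. The correlations of same-numbered D20 and D15 libraries, as deviations from their stage means, were 0.15, 0.18, −0.07 and −0.02, and D20 replicate 4 correlated most with D15 replicate 3, at 0.26. With a replicate block in the model of 27 libraries, 655 genes were higher and 666 lower, and 9 named genes no longer passed. With the block in the 8 WT libraries alone, 96 were higher and 45 lower. In that fit 78 of the 93 named genes no longer passed and 15 did. Among the 78 were apd-3l, CPR28, Y-y, Y-h, tyn, Blimp-1, dib, Hsc70-3 and Col4a1.

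The counts of 617 higher and 666 lower genes became 835 and 847 with DESeq2, 349 and 6191 by library size, 233 and 145 with the 8 WT libraries alone, 244 and 194 within sequencing batch 1 and 1015 and 773 without D15 replicate 3 and D20 replicate 4. Leaving out 1 library gave 463 to 1009 higher and 407 to 854 lower. The 17 genes with a higher change in mutants became 92 with DESeq2, 4 by library size, 30 with a batch term and 6 to 86 without 1 library, and the 269 with a lower change 174 to 313 without 1 library. With the single most abundant gene the difference of the shares was 18.7 points (exact permutation test, p = 0.0571).

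Signs turned by library size for mt:COI (−0.46), Syt1 (−0.31), nSyb (−0.30), ergic53 (−0.16), Hr3 (−0.037), Gli (−0.030) and ND-42 (−0.023), and in the batch 3 pair, which has no test, for LOC105192464 (7.20), LOC105187852 (3.11) and Osi16 (1.56). Cyp303a1 turned within batch 1 (−1.31) and without both libraries that stood apart (−0.21), and without 1 library it was at −1.07 to 5.65. The cause was not tested. Of the named genes other than CSP6, 93 passed, and 63 of these also passed without any 1 of the 8 WT libraries. With the DESeq2 test, its size factors or the filterByExpr filter, all named genes kept their sign and side of the threshold, as did 101 with no filter and 102 with a batch term, while of the 93 that passed 52 no longer did with the 8 WT libraries alone, 54 within batch 1 and 20 by library size. In the simulated counts few changes of 1 on the log2 scale were recovered, so a gene that did not pass may still have changed by that much.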

Other observations

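Lists that the results above do not describe had these median log2 changes in WT, D20 over D15, against −0.04 for all genes tested. The median was −0.46 over 6 odorant-binding and perireceptor genes, 0.01 over 5 genes of fatty acid and hydrocarbon synthesis, −0.24 over 9 genes of cell death and −0.43 over 6 genes of the immune response. Over 3 genes of ecdysis peptides and their receptors it was −0.97, and the 1 measured gene of the juvenile hormone list had −0.50. By library size these values were −1.17, −0.69, −0.95, −1.12, −1.49 and −1.04, against −0.80 for all genes. The lists were matched by symbol and left out related genes described above. Jhbp2 is not on the juvenile hormone list, and PGRP-S3 and spz6 are not on the immune list. CSP2 and CSP6 are not on the perireceptor list.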
